A study of Mus musculus with 4 samples.

Results

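Jun, the transcription factor gene that leads the AP-1 family, was read in erythroblasts of Parp2 knockout and wild type mice together with 9 other immediate early genes, to ask whether it differed alone or with the genes that sorting and tissue handling also induce. The 10 genes were Jun, Junb, Jund, Fos, Fosb, Egr1, Ier2, Dusp1, Zfp36 and Klf6. They are 10 of 19938 genes that had a probe set naming them alone, and each had exactly 1 such probe set. The genes were picked with the genotype differences of Jun, Klf6 and Zfp36 in view, so every difference between the genotypes below is a description with no test. The cells were bone marrow cells sorted as positive for Ter119, an erythroid surface antigen, and for CD71, the transferrin receptor. Each genotype, wild type or Parp-2-/- on a C57BL/6 background, had 2 arrays. Age, sex of the animals and the extent of the deletion are not given in the sources used here. The labels do not say whether the arrays of a genotype came from separate mice, so errors and p-values reflect variation among these samples alone, and that variation may be technical. Sample titles of wild type arrays open with 1 or 2 and those of knockout arrays with 3 or 4, and an order of processing, if that is what these numbers mark, cannot be told apart from the genotype.

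Immediate early genes are transcribed within minutes of a stimulus, before any new protein has been made. Jun and Fos proteins pair through leucine zippers into AP-1, which binds DNA and switches on later genes; stress kinases of the JNK family activate Jun protein, and the factors CREB, SRF and ELK1 drive transcription of Fos and Egr1. The products of Dusp1 and Zfp36 close the response, the first by dephosphorylating the kinases and the second by destroying mRNAs with AU-rich elements. Cell sorting, warming and enzyme treatment of a tissue induce many of these genes, which is why they are read together as a sign of handling.

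The stretch upstream of the transcription start is printed for Jun, whose level was higher in the knockout, for Klf6 and Zfp36, whose levels were lower, and for Fos, whose genotypes overlapped, so that the starting points of genes with different behaviour can be read side by side. Each run holds the 250 bases before the RefSeq start in build GRCm38.p6, 5′ to 3′ along the gene's own strand, and capitals mark the motif matches named below.
Jun, chr4:95052223-95052472, minus strand: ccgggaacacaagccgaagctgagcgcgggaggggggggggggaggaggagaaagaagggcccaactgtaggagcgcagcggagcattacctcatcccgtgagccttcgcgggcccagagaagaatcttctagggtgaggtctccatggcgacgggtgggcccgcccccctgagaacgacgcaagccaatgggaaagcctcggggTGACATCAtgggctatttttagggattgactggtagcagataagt
Klf6, chr13:5861239-5861488, plus strand: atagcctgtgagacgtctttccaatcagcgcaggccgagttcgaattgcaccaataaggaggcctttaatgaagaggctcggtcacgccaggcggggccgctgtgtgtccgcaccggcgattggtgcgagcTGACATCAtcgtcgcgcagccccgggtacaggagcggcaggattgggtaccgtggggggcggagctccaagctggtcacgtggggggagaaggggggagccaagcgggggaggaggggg
Zfp36, chr7:28379229-28379478, minus strand: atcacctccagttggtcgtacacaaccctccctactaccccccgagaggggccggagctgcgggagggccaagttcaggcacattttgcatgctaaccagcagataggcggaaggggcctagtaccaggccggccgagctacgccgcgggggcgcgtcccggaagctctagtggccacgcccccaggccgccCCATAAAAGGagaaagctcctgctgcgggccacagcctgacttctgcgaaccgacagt
Fos, chr12:85473640-85473889, plus strand: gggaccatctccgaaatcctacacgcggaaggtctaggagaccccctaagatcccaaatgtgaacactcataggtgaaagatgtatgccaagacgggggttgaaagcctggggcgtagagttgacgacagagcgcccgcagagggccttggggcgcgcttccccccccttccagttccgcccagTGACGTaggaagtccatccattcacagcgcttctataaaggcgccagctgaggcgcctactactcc

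The capitals in Jun and in Klf6 are the same letters, TGACATCA, a variant of the cyclic AMP response element that Jun and ATF2 pairs are known to bind. The match lies 45 to 38 bases before the start of Jun and 119 to 112 bases before that of Klf6. Of 32851 promoter windows of the same length, 2.93% hold TGACATCA on either strand. In Fos the capitals are TGACGT, the core of the cyclic AMP response element, 66 to 61 bases before the start; 6.47% of windows hold it. In Zfp36 they are a CArG box, the kind of site that SRF binds, 58 to 49 bases before the start, and 1.47% of windows hold one. Dusp1 holds the full element TGACGTCA, found in 1.55% of windows, 143 to 136 bases before its start, and a further TGACGT 191 to 186 bases before it. The full element contains the core on both strands, so those matches overlap. The AP-1 site TGACTCA (4.46% of windows) and the EGR site GCGTGGGCG (0.536% of windows) matched in 0 of the 8 members with a window, which were all but Egr1 and Ier2. A match is a run of letters and no evidence of binding. The 2 genes that share TGACATCA, Jun and Klf6, had genotype differences of opposite sign.

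Of the 10 genes, Jun was the only one whose knockout values all exceeded its wild type values, Dusp1, Zfp36 and Klf6 had knockout values that were all lower, and the remaining 6 overlapped. Over all 23410 annotated probe sets, 15.6% lay higher without overlap and 9.42% lower without overlap. The median difference (knockout minus wild type, log2 scale, here and below) was -0.02 for the 10 genes and +0.06 for all probe sets, with 5 genes higher and 5 lower. Without Jun the median of the other 9 was -0.16. The limma fit over all probe sets called 0% of them (0 at an adjusted p under 0.05, 486 at an unadjusted p under 0.05). With 1 array left out groups separate more easily, and the higher count was then 4 with either knockout replicate 1 or wild type replicate 1 left out, and 2 with wild type replicate 2 left out. The lower count was 5 without knockout replicate 1 and 6 without wild type replicate 2. The shares of all probe sets given above are for 4 arrays. No such share was computed with 1 array left out, so these counts cannot be set against a background.

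**Figure D1:**
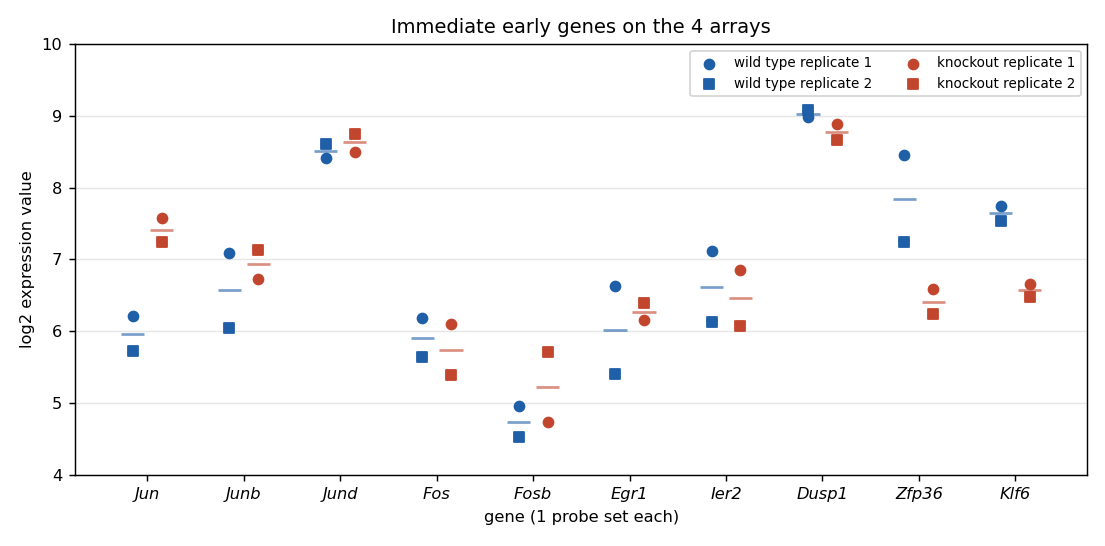
Log2 expression of the 10 immediate early genes on each array; blue points are wild type and red points knockout arrays, circles replicate 1 and squares replicate 2, and short bars the mean of each genotype. Red points lie above blue points without overlap for Jun alone, and below them for Dusp1, Zfp36 and Klf6.

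The Jun subunits of AP-1 come first. Jun itself read 6.21 on wild type replicate 1, 5.72 on wild type replicate 2, 7.58 on knockout replicate 1 and 7.24 on knockout replicate 2; pairs of values below follow the same order of replicates. Both knockout arrays were high and the gap between the genotypes exceeded the gap within either one. The difference was +1.44 ± 0.39 (SE of the limma fit, n = 2 per group), a 2.72-fold level. The 4 possible knockout minus wild type differences ran from +1.03 to +1.86, and Jun stood 38th from the top among the differences of 19938 genes. Junb, whose protein competes with Jun for the same partners and often restrains it, read 7.09 and 6.05 in wild type and 6.72 and 7.13 in the knockout. The wild type arrays bracketed knockout replicate 1, so the genotypes overlapped, and the difference of +0.36 ± 0.46 (n = 2 per group) was smaller than its error. Without wild type replicate 2 it was -0.16. Jund, the steadily expressed member of the family, read 8.41 and 8.61 in wild type and 8.50 and 8.75 in the knockout. All 4 values fell within a narrow band and overlapped, with a difference of +0.11 ± 0.36 (n = 2 per group).

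The Fos subunits cannot pair with themselves and act through a Jun partner. Fos read 6.18 and 5.64 on wild type replicates 1 and 2 and 6.10 and 5.39 on knockout replicates 1 and 2. In each genotype replicate 1 was the higher array, the genotypes overlapped, and the difference was -0.16 ± 0.42 (n = 2 per group). Fosb read 4.96 and 4.53 in wild type and 4.74 and 5.71 in the knockout. Only knockout replicate 2 was high, and the difference of +0.48 ± 0.45 (n = 2 per group) was -0.01 without that array. Fos and Fosb thus gave no separation of the genotypes in the direction of Jun.

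The zinc finger factors parted ways. Klf6, a Krüppel-like transcription factor, read 7.74 and 7.54 in wild type and 6.66 and 6.48 in the knockout. The arrays of a genotype lay close together and the genotypes were far apart, with a difference of -1.07 ± 0.36 (n = 2 per group), a 2.1-fold lower level. The difference was nearly the same within number 1 (-1.08) and within number 2 (-1.07). Egr1, an early growth response factor that serum and many stresses induce, read 6.63 and 5.41 in wild type and 6.16 and 6.39 in the knockout. Both knockout values fell between the wild type values, and the difference was +0.25 ± 0.49 (n = 2 per group). It was -0.36 with wild type replicate 2 left out and +0.87 with wild type replicate 1 left out. Ier2, a small nuclear immediate early protein, read 7.12 and 6.13 in wild type and 6.85 and 6.07 in the knockout. Replicate 1 was again the higher array of each genotype, and the genotypes overlapped with a difference of -0.16 ± 0.49 (n = 2 per group).

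The feedback regulators were lower in the knockout, by very different amounts. Zfp36, which encodes the mRNA-destabilising protein tristetraprolin, read 8.45 and 7.24 in wild type and 6.59 and 6.24 in the knockout. Wild type replicate 1 stood well above the other arrays, and wild type replicate 2 was still above both knockout arrays. The difference was -1.43 ± 0.49 (n = 2 per group), a 2.69-fold lower level, and leaving out wild type replicate 1 gave -0.82, leaving out wild type replicate 2 gave -2.04. Dusp1, the phosphatase that switches off JNK and p38, read 8.98 and 9.08 in wild type and 8.89 and 8.66 in the knockout. The knockout arrays were lower by a margin of only 0.09, the difference of -0.25 ± 0.36 (n = 2 per group) was within its error, and after repeated quantile normalization the genotypes overlapped.

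**Figure D2:**
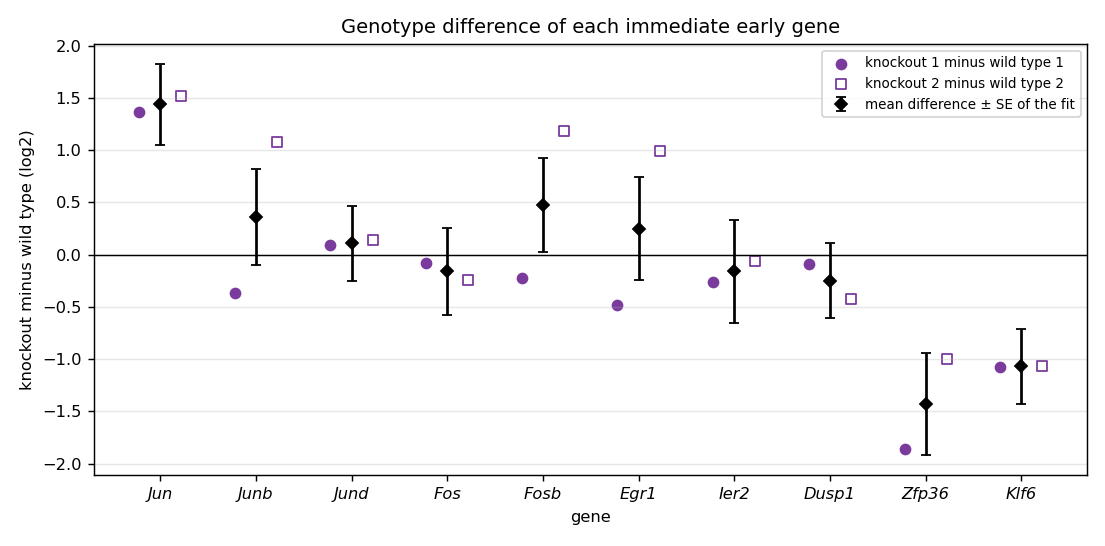
Knockout minus wild type difference of each gene on the log2 scale; diamonds with bars are the mean difference and its SE from the limma fit, and purple symbols are the differences within replicate number 1 (circles) and within number 2 (open squares). Jun lies near +1.44 and Klf6 near -1.07 for both numbers, whereas Junb, Fosb and Egr1 lie below 0 for number 1 and near or above +1 for number 2.

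The sign of the difference was the same within both replicate numbers for Jun, Jund, Fos, Ier2, Dusp1, Zfp36 and Klf6. For Junb it was -0.37 within number 1 and +1.08 within number 2. For Egr1 the corresponding values were -0.48 and +0.99, and for Fosb -0.22 and +1.18. These 3 genes therefore had the sign of Jun between the arrays numbered 2 and the opposite sign between the arrays numbered 1. What the number marks is not given in the labels.

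The gap between the arrays of a genotype was not used to choose the genes, and it was wide for several of them. Wild type replicate 1 was above wild type replicate 2 for 8 of the 10 genes, by a median of 0.52, where 53.8% of all probe sets were above and the median gap was 0.04. The gap was 1.23 for Egr1, 1.21 for Zfp36, 1.04 for Junb and 0.99 for Ier2. In that direction alone, a gap at least as large as that of Ier2 was found for 7.45% of probe sets, and one as large as that of Egr1 for 4.81%. Between the knockout arrays 6 of the 10 genes were higher on replicate 1, by a median of 0.21, against 39.9% of all probe sets and a median of -0.19. Wild type replicate 1 held the highest value of 5 of the 10 genes (Fos, Egr1, Ier2, Zfp36 and Klf6), while 21.7% of all probe sets had their highest value there. Unlike the gap, the highest array also depends on the genotype difference. Zfp36 and Klf6 were picked with their lower knockout values in view, so this count is a description and not independent of the choice. Neutrophil markers differed between the wild type arrays, with 10 of 12 higher on wild type replicate 1 than on wild type replicate 2 by a median of 0.61, and heat shock genes likewise with 8 of 10 and a median of 0.60. Mast cell, basophil and eosinophil markers were also higher there (7 of 8, median 0.67). The heat shock genes that went the other way were the inducible Hspa1a (5.25 and 5.42 on wild type replicates 1 and 2) and Hspb1 (4.77 and 4.96). Other lists went the opposite way: erythroblast markers were higher on wild type replicate 1 for 1 of 8 (median -0.80), megakaryocyte and platelet markers for 1 of 5 (-1.16), B cell markers for 2 of 8 (-0.55), T and NK cell markers for 1 of 7 (-0.54) and monocyte and macrophage markers for 4 of 11 (-0.27). Between the knockout arrays, neutrophil markers (11 of 12, median 0.67) and heat shock genes (8 of 10, median 0.50) were again higher on replicate 1. Mast cell, basophil and eosinophil markers were at 4 of 8 and -0.02. The lists that went the opposite way in wild type had knockout medians of -0.76 to -0.28. The part of these cells and genes in the gap of the immediate early genes was not tested.

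**Figure D3:**
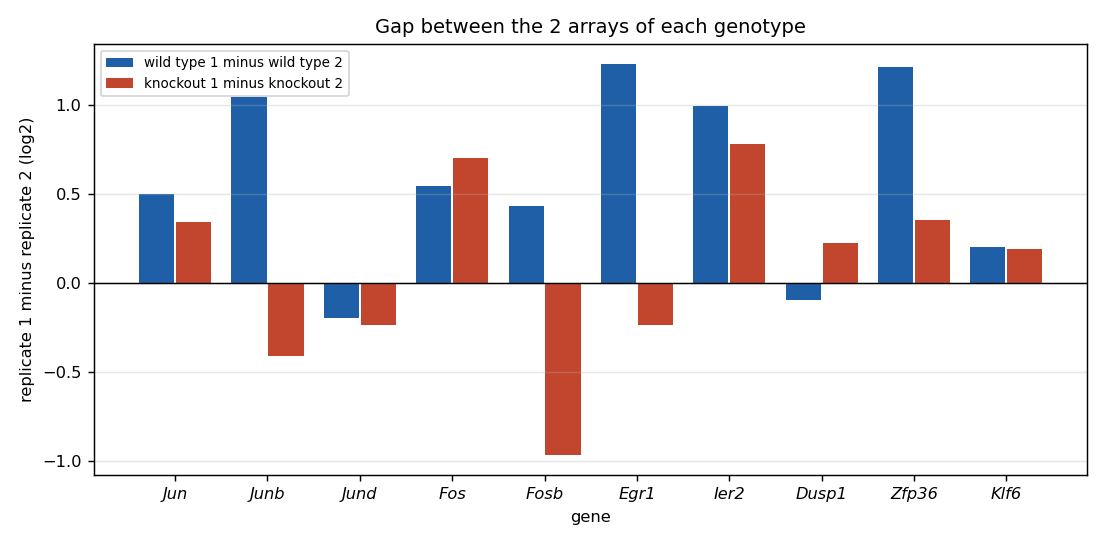
Replicate 1 minus replicate 2 on the log2 scale for each gene, in wild type (blue bars) and in the knockout (red bars). The blue bars of Junb, Egr1, Ier2 and Zfp36 reach 0.99 to 1.23, and the red bars of Junb, Fosb and Egr1 point the other way.

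A fit of number 2 against number 1 across both genotypes asked whether these genes followed the replicate number. Of the 10 genes 8 were lower on the arrays numbered 2, with a median of -0.37 against +0.08 over all probe sets. In limma 0 of the 10 passed, where 3.09% of all 23410 probe sets did. On the arrays numbered 2 the values were lower without overlap for 2 of the 10 genes, Fos and Ier2 (22.2% of all probe sets), and higher without overlap for 1, Jund (26.2%). The lowest adjusted p was 0.163, for Ier2 (-0.89 ± 0.32, n = 2 per number, lower on both arrays numbered 2), with an unadjusted p of 0.0188 in the same limma fit. Ier2 was the 1 member of 10 at an unadjusted p under 0.05, where 17.9% of all probe sets were. For Fos the value was -0.62 ± 0.32 (limma, adjusted p = 0.349). This fit held no term for genotype, so a genotype difference widened the error of a gene and made a pass harder. The errors of Jun, Zfp36 and Klf6 were 0.55, 0.57 and 0.46. With genotype as a block the fit gave all 10 members the same error of 0.41, which is not an error of each gene. For Ier2, Fos and Jund that was larger than their errors without the block (0.32, 0.32 and 0.31). The adjusted p of Ier2 in the limma fit with the block was 0.187. With that block 0 of the 10 passed as well, while the count over all probe sets was 2121 in place of 724. Centring each array on its median left 0 of the 724 called probe sets. With knockout replicate 1 left out the difference of Zfp36 by number was -1.71. The fit then gave all 10 members the same error, so no pass is read from it. Of the 3 arrays left 2 are wild type, and the number is no longer balanced against the genotype. Leaving out any array leaves 1 of the numbers with a single array.

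Other genes of the response were read from lists chosen by function. None of the genes of the 7 lists below passed the limma test by genotype in either direction, as 0% of all probe sets did. Of 21 other immediate early genes 8 were higher and 13 lower, 2 and 5 of them without overlap (15.6% and 9.42% of all probe sets). Their median was -0.13 (all probe sets, +0.06). That median was +0.05 without knockout replicate 1, +0.03 without wild type replicate 1 and +0.03 after repeated quantile normalization, and -0.27 and -0.22 without the other arrays of wild type and knockout. Gadd45b, a growth arrest and stress gene, was at -1.26 ± 0.51 and Rhob, a small GTPase induced by damage, at -1.17 ± 0.35. Ier3 (+0.90 ± 0.42) and Ccn1 (+0.29 ± 0.36), a matrix-associated signalling protein, were at the other end. The genes of the wider group thus also lay on both sides of 0. In the fit by replicate number 1 of the 21 passed, Myc, the growth-promoting transcription factor, which read 10.15 and 7.72 in wild type and 9.51 and 7.15 in the knockout (-2.39, limma, adjusted p = 0.0201); centring the arrays gave it an adjusted p of 0.0773 and repeated quantile normalization 0.128 in the same limma fit, and over all settings its adjusted p ran from 8.66e-07 to 0.338.

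Among 16 other AP-1 and related leucine zipper genes 11 were higher and 5 lower, 2 and 1 of them without overlap (15.6% and 9.42% of all probe sets), with a median of +0.10 that became -0.10 on leaving out wild type replicate 1, +0.30 on leaving out wild type replicate 2 and +0.01 on leaving out knockout replicate 2. Fosl2, a further Fos subunit, read 5.77 and 5.77 in wild type and 6.36 and 6.23 in the knockout (+0.53 ± 0.35, n = 2 per group), and Maff, a small Maf protein, was at +0.40 ± 0.42. Jdp2, a repressor that pairs with Jun, was at -0.49 ± 0.37, and Atf2, which pairs with Jun on TGACATCA, at -0.43 ± 0.46.

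Of 18 measured upstream kinases and SRF cofactors 4 were higher and 14 lower, 0 and 3 without overlap (15.6% and 9.42% of all probe sets). Their median was -0.25. The median was -0.61 on leaving out knockout replicate 1, -0.39 for wild type replicate 2, -0.11 for knockout replicate 2 and -0.09 after repeated quantile normalization. The lowest were Mapk9, which encodes JNK2 (-1.10 ± 0.75), and the stress kinase genes Map3k5 (-0.96 ± 0.40) and Map2k6 (-0.96 ± 0.42), and the highest were the SRF partners Elk4 (+0.16 ± 0.40) and Elk1 (+0.09 ± 0.35). Mapk8, which encodes JNK1 and was chosen for mention after its values were seen, was at -0.94 ± 0.58; on both JNK genes knockout replicate 2 stood far below the other arrays, at 5.74 against 7.77 to 8.27 for Mapk9 and at 4.96 against 6.48 to 6.95 for Mapk8. SRF itself, by its gene Srf, was at -0.02 ± 0.65.

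Of 15 feedback and turnover regulators 7 were higher and 8 lower, 3 and 2 without overlap (15.6% and 9.42% of all probe sets). Their median was -0.05. The sign turned on leaving out knockout replicate 1 (+0.37), wild type replicate 1 (+0.10) or knockout replicate 2 (+0.03), and under repeated quantile normalization (+0.05). Fbxw7, the subunit of a ubiquitin ligase that recognises phosphorylated Jun, was at -1.33 ± 0.50, and a second probe set of that gene gave -0.40. Dusp6, an ERK phosphatase, was at -0.77 ± 0.44, and the highest were the ERK phosphatase gene Dusp5 (+0.41 ± 0.36) and the receptor signalling inhibitor gene Spry1 (+0.41 ± 0.36). The relatives of Zfp36, Zfp36l1 and Zfp36l2, were at -0.34 ± 0.63 and -0.28 ± 0.46 and overlapped.

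Genes downstream of AP-1 and of Zfp36 were compared next. Of 6 measured AP-1 target genes 2 were higher and 4 lower, 0 and 3 without overlap (15.6% and 9.42% of all probe sets). Their median was -0.49. Leaving out wild type replicate 1 gave a median of -0.12, and leaving out wild type replicate 2 gave -0.91. Vim, the intermediate filament gene, read 9.61 and 9.07 in wild type and 8.10 and 6.99 in the knockout (-1.79 ± 0.48, n = 2 per group), and Plaur, the urokinase receptor gene of myeloid cells, was at -1.08 ± 0.47. Hbegf and Timp1 were at +0.25 ± 0.42 and +0.07 ± 0.37. Of 9 mRNAs with AU-rich elements that tristetraprolin destabilises 5 were higher and 4 lower. Without overlap there were 2 and 0 (15.6% and 9.42% of all probe sets). Those 2 were Cxcl2 (3.49 to 4.35 over the arrays) and Il10 (3.57 to 4.08), both below the array medians of 5.23 to 5.49. Both were highest on knockout replicate 2. The median of the 9 was +0.10. That median was -0.06 without knockout replicate 2 and -0.04 after repeated quantile normalization, +0.33 on leaving out wild type replicate 1 and +0.03 on leaving out wild type replicate 2. Cxcl2 (+0.58 ± 0.37) and Cxcl1 (+0.44 ± 0.40), both neutrophil-attracting chemokines, lay at one end and Ccl3 (-1.15 ± 1.00) and Ptgs2 (-0.68 ± 0.67) at the other. Wild type replicate 1 held the highest value of both, 2.64 above wild type replicate 2 for Ccl3 and 2.09 above it for Ptgs2.

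**Figure D4:**
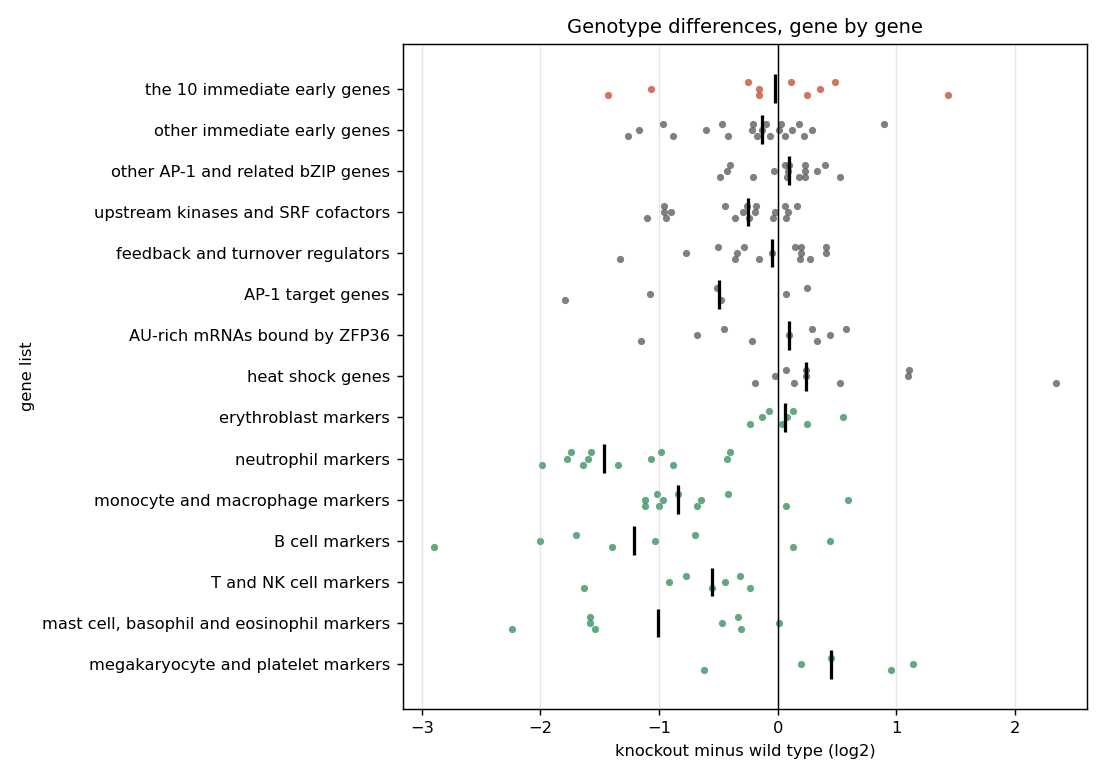
Knockout minus wild type difference on the log2 scale, 1 point per gene, for the 10 immediate early genes (red), the other gene lists (grey) and cell type markers (green); black ticks are list medians. The immediate early genes spread from -1.43 to +1.44 around a median of -0.02, and the neutrophil markers lie wholly below 0 with a median of -1.46.

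Heat shock genes, which handling and warming also induce, were read beside Jun. Of 10 measured 8 were higher and 2 lower, 3 and 0 without overlap (15.6% and 9.42% of all probe sets), with a median of +0.24. The median was -0.06 without knockout replicate 1, +0.06 without wild type replicate 2, +0.53 on leaving out wild type replicate 1, +0.67 on leaving out knockout replicate 2 and +0.38 after repeated quantile normalization. Those without overlap were the inducible chaperone gene Hspa1a (+2.35 ± 0.62), its cochaperone gene Bag3 (+1.11 ± 0.42) and Hsph1 (+1.10 ± 0.44); the lowest were Hspe1 (-0.19 ± 0.60) and Hspa8 (-0.02 ± 0.36). Bag3 was also among the 5 genes whose profile over the 4 arrays, each centred on its own mean, lay closest to that of Jun, with a root mean square distance of 0.20 on the log2 scale. The others were Zfp958 (0.19), 1700008P02Rik (0.20), Rabl2 (0.22) and Gcdh (0.22). These distances rest on 4 arrays and say nothing of shared control. Among the members the nearest to Jun was Junb, at 0.63, with rank 2541 among all genes, and the farthest was Zfp36, at 1.46.

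Several of these genes are abundant in leukocytes as well as in erythroid cells, so markers of the sorted cells and of other blood cells were read beside them. The erythroblast markers were bright, with Tfrc, which encodes CD71, between 10.35 and 11.43, the erythroid factor Klf1 between 9.32 and 9.93 and Gata1 between 9.52 and 9.84. Of 8 erythroblast markers 5 were higher and 3 lower, all with overlap, with a median of +0.06. Leaving out wild type replicate 1 gave a median of -0.41 and leaving out wild type replicate 2 one of +0.39, and it was +0.13 and -0.14 without knockout replicates 1 and 2, -0.01 after centring and +0.22 after repeated quantile normalization. Their summed linear signal (the sum of the values with the log2 undone) was 11613 and 24731 in wild type and 15641 and 22365 in the knockout. Neutrophil markers were present on all arrays, and all 12 were lower in the knockout, 11 of them without overlap (9.42% of all probe sets). Their median was -1.46 (-0.94 without knockout replicate 2 and -0.97 without wild type replicate 1). Their summed linear signal was 40152 and 34762 in wild type and 24518 and 19574 in the knockout. Elane (-1.99 ± 0.92), the only neutrophil marker whose genotypes overlapped, and Cxcr2 (-1.78 ± 0.67) had the lowest differences. In RNA pooled from many cells, fewer cells of a type and less RNA per cell cannot be told apart.

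Beside the counts without overlap that follow, 9.42% of all probe sets were lower and 15.6% higher without overlap. Markers of monocytes and macrophages were lower for 9 of 11 (5 without overlap, median -0.84), with C1qa (-1.12 ± 0.77) and Adgre1 (-1.12 ± 0.36) lowest. Their summed linear signal was 5578 to 5947 in wild type and 3184 to 3247 in the knockout. B cell markers were lower for 6 of 8, all 6 without overlap (median -1.22), with Vpreb1 (-2.90 ± 0.55) and Ms4a1 (-2.00 ± 0.38) lowest; the sums were 1129 to 1602 in wild type and 542 to 667 in the knockout. T and NK cell markers were lower for 7 of 7 (3 without overlap, median -0.55). Nkg7 (-1.63 ± 0.55) and Cd3g (-0.92 ± 0.38) were lowest, and the sums were 584 to 935 against 285 to 354. Cd3g, Klrb1c, Cd3d and Gzma were dim, at 3.46 to 5.37, near or below the array medians of 5.23 to 5.49. Nkg7 read 7.02 to 9.55. Mast cell, basophil and eosinophil markers were lower for 7 of 8 (4 without overlap, median -1.01), with Mcpt8 (-2.24 ± 0.48) and Prss34 (-1.58 ± 0.52) lowest and sums of 824 to 1666 against 413 to 443. Megakaryocyte and platelet markers were higher for 4 of 5 (1 without overlap, median +0.45). The higher were Pf4 (+1.14 ± 0.74), Ppbp (+0.96 ± 0.93), Itgb3 (+0.45 ± 0.36, the 1 without overlap) and Itga2b (+0.20 ± 0.61). Gp9 (-0.62 ± 0.41) was lower without overlap, and the sums were 409 to 540 against 326 to 596. Log2 array values have no true zero, so a marker at 0 cannot be given. With 1 array left out the T and NK median ran from -1.09 (without knockout replicate 2) to -0.32 (without wild type replicate 2), with -0.95 without wild type replicate 1. The mast cell, basophil and eosinophil median was -0.48, -1.49 and -0.66 on leaving out wild type replicate 1, wild type replicate 2 or knockout replicate 2. The monocyte and macrophage median was -0.56 without knockout replicate 1. The megakaryocyte and platelet median changed sign, to -0.37, without wild type replicate 1, and was +0.25 without knockout replicate 2, +0.78 on leaving out wild type replicate 2 and +0.91 on leaving out knockout replicate 1. None of these markers passed the limma test over all probe sets. Of the 10 immediate early genes, 5 (Fos, Ier2, Dusp1, Zfp36 and Klf6) had the negative sign of most leukocyte markers. The other 5 (Jun, Junb, Jund, Fosb and Egr1) had the opposite sign. Only Jun, Dusp1, Zfp36 and Klf6 kept their sign with each array left out in turn, after centring and after repeated quantile normalization. The part of other cells in these values was not tested.

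The targeted gene Parp2 read 8.24 and 7.65 in wild type and 7.11 and 6.70 in the knockout, a difference of -1.04 ± 0.40 (n = 2 per group) in the direction of the labels, with no overlap. Array medians over the annotated probe sets lay between 5.23 and 5.49, and the interquartile range was 1.98 on knockout replicate 2 and 2.62 to 2.94 elsewhere. That array held the highest value of 43.1% of all probe sets and the highest value of 3 of the 10 genes, Junb, Jund and Fosb. It also held the lowest value of 5 of the 10, Fos, Ier2, Dusp1, Zfp36 and Klf6, and of 27.5% of all probe sets. Because Zfp36 and Klf6 were picked with their lower knockout values in view, these counts are not independent of the choice. Without knockout replicate 2 the differences were -0.01 for Jund and Fosb, +0.15 for Junb, +0.14 for Egr1, +0.19 for Fos, +0.23 for Ier2 and +1.61 for Jun.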

How the data were processed

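RNA of sorted bone marrow erythroblasts was measured on 4 Affymetrix arrays, 2 per genotype. The authors deposited 1 table of normalized log2 expression values with 35511 probe sets; the submitters' processing notes list R 3.0.2, RMA and limma, with no role given. RMA compresses differences of dim probe sets, and the number of arrays limits the precision. The platform annotation gave 23410 probe sets a gene, 21789 of them a single one. A gene was represented by its probe set with the highest mean.

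The comparison of genotypes used R 4.3.3 and limma 3.58.1 (eBayes after lmFit, 2 residual and 4.77 prior degrees of freedom) over the 23410 annotated probe sets, with Benjamini-Hochberg adjusted p under 0.05 as the threshold; the replicate number was compared likewise. An exact permutation test of 2 arrays against 2 cannot go below p = 0.333 and was not used. Members and lists were chosen with earlier results of these data known. Each other list gives its 2 highest and 2 lowest genes, and the 5 profiles nearest Jun are named. Each marker list gives its 2 lowest genes, or for erythroblasts Tfrc, Klf1 and Gata1. The megakaryocyte and platelet list gives all its measured genes. Promoter sequences are from RefSeq, build GRCm38.p6, for 8 of the 10 genes. Alternatives were leaving out each array, centring, repeated quantile normalization, a filter on dim probe sets, other moderation, array weights, all rows, other thresholds, a block and the mean over probe sets.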

Additional observations from a re-analysis of the deposited data

How the results depend on the processing

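The count of probe sets past the limma test by genotype (0) was 0 to 62 with 1 array left out (5 without wild type replicate 1, 62 without wild type replicate 2), 8 when moderation was trended and robust, and 486 for a change of at least 1.5-fold with p under 0.05 before adjustment. With the replicate number as a replicate block it was 274, in a fit that gave all 10 members the same error of 0.41. No label says that the number pairs the arrays. Across probe sets the correlation between the wild type and the knockout differences by number was 0.468. The count by replicate number (724) was 0 to 1178 with 1 array left out, 0 after centring, after repeated quantile normalization or over all rows of the table, 182 among brighter probe sets, 2190 with trended and robust moderation, 10 with array weights, 2121 with genotype as a block and 1648 at an adjusted p under 0.1. The count of members that passed by number was 0 to 1 with 1 array left out. Members higher without overlap (1) numbered 1 to 4 and members lower without overlap (3) numbered 3 to 6 with 1 array left out. The share of all probe sets was not computed for those settings. Across 7 settings Jun stayed between +1.20 and +1.69, Klf6 between -1.18 and -0.87, Zfp36 between -2.04 and -0.82 and Dusp1 between -0.37 and -0.07. The other 6 members changed sign in at least 1 setting, each by leaving out an array. The median of the members ran from -0.28 to +0.22. Each member had 1 probe set, so averaging probe sets changed nothing for them. The cause of these changes was not tested.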
